A study of Mus musculus with 6 samples.

Results

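The cytosolic ribosome is built from a large and a small subunit, and this account concerns the transcripts of the proteins in both. Members were genes whose single annotated symbol follows the ribosomal protein pattern (*Rpl* or *Rps* and a number), together with *Rpsa* and the stalk proteins *Rplp0*, *Rplp1* and *Rplp2*, without kinases, mitochondrial proteins or marked pseudogenes. They came to 49 of 18193 genes measured: 22 of the large subunit, 21 of the small subunit and 6 paralogs of core proteins. No member could be read for *Rplp1*, *Rpl5* and others, because their probe sets carry several symbols.

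RNA of whole e15.5 pancreases from C57BL/6 mice was hybridized to 6 Affymetrix arrays, 3 of *Jarid2* Δpanc embryos and 3 of wild-type embryos, called *Jarid2* WT. In *Jarid2* Δpanc (*Pdx1-Cre;Jarid2* flox/flox) Cre is driven by the *Pdx1* promoter in pancreatic progenitors, the deletion removes exon 3, and recombination was described as mosaic and limited to the epithelium, so that mesenchyme, vessels and blood in the sample keep *Jarid2*. Controls were littermates whose alleles are not given in the sources used here. The titles number the embryos 1 to 3 in each group, nothing states whether RNA was pooled, and p-values measure the spread between these samples. A description label names islets in glucose, whereas tissue, age and source name embryonic pancreas. The question was which transcripts depend on *Jarid2*, a partner of Polycomb repressive complex 2, when endocrine and acinar cells form.

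Values are linear intensities (signals) in the deposited scaling, and differences are log2 fold changes of *Jarid2* Δpanc over *Jarid2* WT, with signals under 16 set to 16. *Jarid2* had signals of 392, 398 and 355 in *Jarid2* Δpanc, against 335, 301 and 415 in *Jarid2* WT, and whether its probes lie in the deleted exon was not analysed here. *Xist*, the RNA of an inactive X chromosome, was at 4662, 4905 and 4197 in *Jarid2* Δpanc and at 24, 12 and 4390 in *Jarid2* WT. *Eif2s3y*, on the Y chromosome, was at 7, 5 and 13 in *Jarid2* Δpanc and at 560, 506 and 9 in *Jarid2* WT. By these transcripts *Jarid2* WT 1 and 2 are male and the other arrays female, and no sex label was used here. Sex thus differs between the groups, and its part in the differences below cannot be fully told apart from genotype. The 7 skeletal muscle markers summed to at most 268 in *Jarid2* Δpanc and to 163, 229 and 8316 in *Jarid2* WT, so *Jarid2* WT 3 stands apart for muscle. Acinar and endocrine markers were detected, with no marker at 0. The acinar markers summed to 58524 to 71016 in *Jarid2* Δpanc and 72000 to 80804 in *Jarid2* WT, and the endocrine ones to 11702 to 13489 in *Jarid2* Δpanc and 19619 to 22688 in *Jarid2* WT. At an unadjusted p under 0.05, 5 of 10 acinar and 6 of 9 endocrine markers were lower, beside 4.44% of all genes. Of the mesenchyme markers 0 of 7 were called, and all 7 had positive fold changes. These shifts ran beside the ribosomal protein values below, and their part in them was not tested. In bulk tissue, fewer cells of a type and less RNA per cell cannot be told apart.

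Ribosomal proteins are made in equal amounts for each ribosome and their mRNAs are among the most abundant of a growing or secreting cell. Most of these mRNAs begin with a C followed by a run of pyrimidines, the terminal oligopyrimidine (TOP) motif, through which mTORC1 and the RNA-binding protein Larp1 set their translation and stability together. When ribosome assembly falters, free Rpl5 and Rpl11 bind Mdm2 and p53 is stabilised, and loss of 1 copy of several of these genes causes Diamond-Blackfan anaemia in humans. The exocrine pancreas is known for its high rate of protein synthesis.

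The start sites were searched for the pyrimidine run of TOP mRNAs, which the choice of members did not use, and it was found at the annotated start of fewer than 1 in 2 of them (counts below). Of the 49 members, 43 have an entry among RefSeq promoters of GRCm38.p6 (*Rpl7*, *Rpl8*, *Rps14*, *Rps20*, *Rps29* and *Rps4l* have none). The 6 windows below run from 15 bases before the annotated start through 15 bases from it, 5′ to 3′ on the gene's strand, and capitals mark the run of C or T at the start. They come from the small subunit (*Rps6*, *Rps10*, *Rps27*), the stalk and its base (*Rplp2*, *Rpl12*) and a paralog (*Rpl22l1*), and were picked among the members named below so that the whole run is visible.
Rps6: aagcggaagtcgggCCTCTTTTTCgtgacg
Rps10: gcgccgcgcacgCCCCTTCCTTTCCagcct
Rps27: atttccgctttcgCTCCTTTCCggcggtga
Rplp2: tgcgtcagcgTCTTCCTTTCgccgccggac
Rpl12: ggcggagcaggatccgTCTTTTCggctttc
Rpl22l1: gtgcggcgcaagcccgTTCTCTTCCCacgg
The windows lie at chr4:86857353-86857382 on the minus strand for *Rps6*, chr17:27635230-27635259 on the minus strand for *Rps10*, chr3:90213634-90213663 on the minus strand for *Rps27*, chr7:141447636-141447665 on the plus strand for *Rplp2*, chr2:32961697-32961726 on the plus strand for *Rpl12* and chr3:28805493-28805522 on the plus strand for *Rpl22l1*. Each spans the promoter and the first bases of the first exon.

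A run of at least 6 C or T on the gene's strand, touching the 3 bases either side of an annotated start, was found in 19 of the 43 members (44.2%), against 19.3% of 27025 genes with a promoter entry. CCGGAAG or its complement CTTCCGG, the core letters bound by ETS factors, was found on either strand in 21 of the 43 members (48.8%) and in 9.93% of all genes, within 300 bases that end 50 bases after the start. The second spelling can overlap a pyrimidine run. A gene counted when any of its promoters held the letters, and annotated starts need not be the starts used in the pancreas. The 19 members with a run had a median log2 fold change of -0.08 (range -0.15 to 0.18) and the 24 without one a median of -0.10 (range -0.27 to 0.00).

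No ribosomal protein gene passed the threshold of 0.05 for adjusted p from limma with Benjamini-Hochberg adjustment in either direction, and neither did any other gene (0% of 18193 lower and 0% higher). Before adjustment, 2 of 49 members (4.08%) were lower at p under 0.05, beside 4.44% of all genes, and 0 were higher, beside 4.37%. In 3 members all *Jarid2* Δpanc arrays lay below all *Jarid2* WT arrays, beside 5.65% of all genes, and in 0 they lay above, beside 5.71%. The share of members past each of these limits was thus near or under that of the whole array. The fold changes were small and, in the deposited scaling, mostly of the same sign, with 43 negative, 5 positive and 1 at 0. Their median was -0.09, against 0.00 over all genes, of which 7895 had negative and 8670 positive values, and they ranged from -0.27 to 0.18. The median standard error of a member, 0.087, was of about the size of that median, and the 95% interval included 0 in 47 of 49 members.

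**Figure D1:**
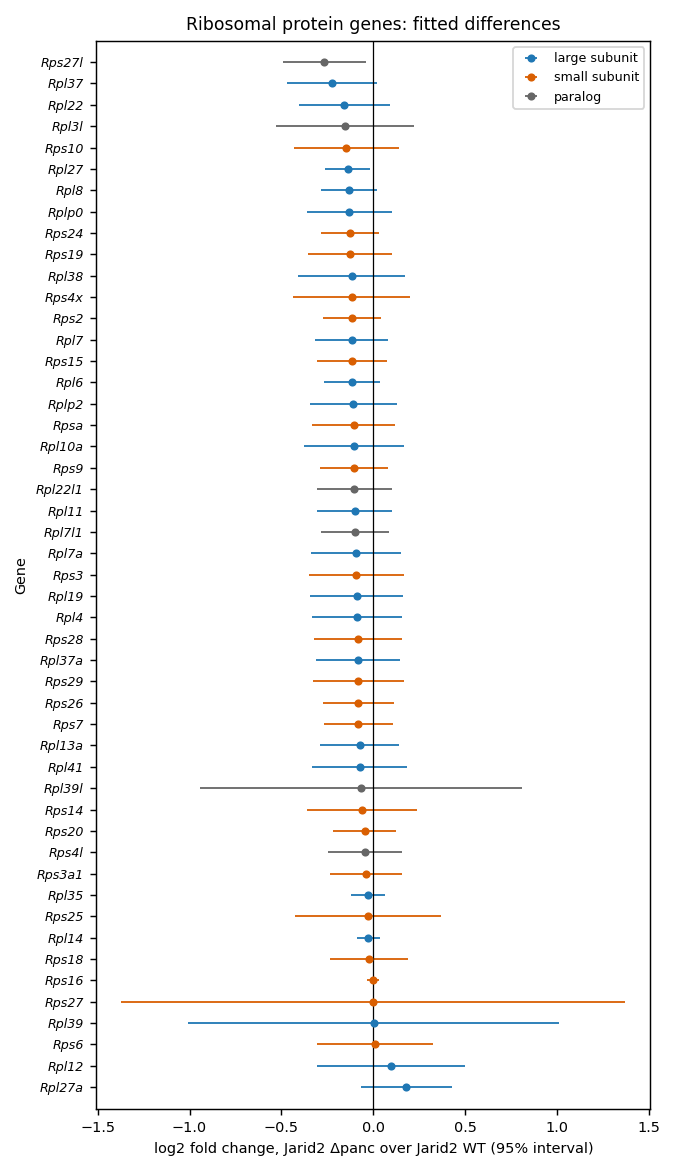
Log2 fold change of *Jarid2* Δpanc over *Jarid2* WT for each of the 49 ribosomal protein genes, 1 row a gene, with the 95% interval from limma as a horizontal bar (n = 3 arrays a group) and colour for large subunit, small subunit and paralogs. Most points sit left of the vertical line at 0 in the deposited scaling, and the intervals of *Rps27l* and *Rpl27* alone do not reach it. Of 36 bright genes, 10 turn positive after quantile normalization. Centring on other bright genes turns 13 positive by their median level, which raises every gene by 0.09, and 5 by their median deviation.

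*Rps27l*, a paralog of the small subunit protein Rps27 that p53 is known to induce, had the lowest fold change. Its signals were 5723, 6707 and 6202 in *Jarid2* Δpanc, against 8089, 7359 and 6971 in *Jarid2* WT, so the groups did not overlap. The log2 fold change was -0.27 (standard error 0.086, 95% interval -0.49 to -0.04, unadjusted p = 0.0294, adjusted p = 0.494 from limma), and its 3 probe sets gave -0.29 to -0.26. Without 1 array at a time the fold change stayed between -0.32 and -0.21, and quantile normalization brought it to -0.16. It passed the unadjusted limit of 0.05 without *Jarid2* Δpanc 2 or *Jarid2* WT 3. It did not pass without any of the other arrays, after quantile normalization, with a floor of 1, or after centring on other bright genes or on spike-ins. *Rps27* itself, which the array read dimly, had 66, 57 and 71 in *Jarid2* Δpanc and 135, 52 and 38 in *Jarid2* WT. *Jarid2* WT 1 and 3 are the highest and the lowest of these values, and the interval of -1.37 to 1.37 leaves its difference unresolved.

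*Rpl27* and *Rpl6*, both of the large subunit and chosen after their values were seen, were the other members whose groups did not overlap. *Rpl27* had signals of 7108, 7821 and 7245 in *Jarid2* Δpanc, against 8294, 8221 and 7889 in *Jarid2* WT (log2 fold change -0.14, standard error 0.046, unadjusted p = 0.0325, adjusted p = 0.505 from limma). *Rpl6* had 10173, 10962 and 10381 in *Jarid2* Δpanc, against 10969, 12203 and 10973 in *Jarid2* WT. The highest *Jarid2* Δpanc value of *Rpl6* is just under the lowest *Jarid2* WT value, and its unadjusted p of 0.108 did not pass.

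Among the other large subunit genes, *Rpl37* had 1265, 1156 and 1144 in *Jarid2* Δpanc, against 1404, 1531 and 1241 in *Jarid2* WT (log2 fold change -0.22, 95% interval -0.47 to 0.02). The groups overlapped by 1 array on each side. *Rpl22*, needed for αβ T-cell development in mice, had 8837, 10930 and 8938 in *Jarid2* Δpanc and 10835, 10526 and 10486 in *Jarid2* WT (-0.16, -0.41 to 0.09). Here *Jarid2* Δpanc 2 was the highest array of all and the other *Jarid2* Δpanc arrays were the lowest, an arrangement that recurs below. Its paralog *Rpl22l1*, which Rpl22 is known to repress in mice, had a fold change of -0.10 (-0.31 to 0.10).

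The stalk of the large subunit recruits the GTPases of translation. *Rplp0*, its scaffold, had signals of 13062, 15731 and 14125 in *Jarid2* Δpanc, against 16044, 16317 and 14545 in *Jarid2* WT (-0.13, 95% interval -0.36 to 0.10). *Rplp2*, which binds to that scaffold, had 13087, 15912 and 13054 in *Jarid2* Δpanc and 15245, 15071 and 14833 in *Jarid2* WT (-0.11, -0.35 to 0.13). *Jarid2* Δpanc 1 and 3 were below every *Jarid2* WT array for both genes. *Rpl12*, at the base of the stalk, was read dimly and had 298, 310 and 396 in *Jarid2* Δpanc against 288, 357 and 290 in *Jarid2* WT (0.10, -0.31 to 0.50). *Rpl11*, which with Rpl5 restrains Mdm2, had 8909, 10604 and 9103 in *Jarid2* Δpanc and 10516, 10183 and 9925 in *Jarid2* WT (-0.10, -0.31 to 0.10). Again only *Jarid2* Δpanc 2 reached the *Jarid2* WT range.

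The highest fold change belonged to *Rpl27a*, a large subunit gene whose mutation causes ataxia in mice. It was measured by a dim probe set with 315, 275 and 304 in *Jarid2* Δpanc and 236, 285 and 270 in *Jarid2* WT, and the interval (0.18, -0.07 to 0.43) included 0. *Rpl13a*, known in human cells for leaving the ribosome to silence inflammatory mRNAs, was among the brightest members and had 13949, 17138 and 15154 in *Jarid2* Δpanc and 16083, 16434 and 16009 in *Jarid2* WT (-0.07, -0.29 to 0.14). *Rpl39*, an X-linked protein of the exit tunnel, had 186, 179 and 94 in *Jarid2* Δpanc and 177, 102 and 172 in *Jarid2* WT. Both groups of *Rpl39* hold high and low arrays, and its interval was wide (0.00, -1.01 to 1.01).

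In the small subunit, *Rps10*, near the site where mRNA enters, had 12163, 16022 and 14058 in *Jarid2* Δpanc and 15478, 15663 and 15307 in *Jarid2* WT (-0.15, 95% interval -0.43 to 0.14). *Rps19*, the gene most often mutated in Diamond-Blackfan anaemia, had 7523, 9317 and 8205 in *Jarid2* Δpanc and 8875, 9342 and 9023 in *Jarid2* WT (-0.13, -0.36 to 0.10). *Rpsa*, also known as the laminin receptor, had 11628, 14261 and 12164 in *Jarid2* Δpanc and 13526, 13894 and 13410 in *Jarid2* WT (-0.11, -0.33 to 0.12). In each of these genes *Jarid2* Δpanc 1 was the lowest array, *Jarid2* Δpanc 3 the next, and *Jarid2* Δpanc 2 lay with or above *Jarid2* WT. With the mean of all probe sets, dim ones included, the fold change was -0.0043 for *Rps10* and -0.28 for *Rpsa*, neither past the unadjusted limit. *Rps4x*, which is X-linked, followed the same order, with 13429, 17733 and 13808 in *Jarid2* Δpanc and 16378, 16281 and 15732 in *Jarid2* WT (-0.12, -0.44 to 0.20). The *Jarid2* WT arrays without *Xist* signal, 1 and 2, were both higher than *Jarid2* WT 3, by less than *Jarid2* Δpanc 2 was above *Jarid2* Δpanc 1 and 3.

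*Rps29*, *Rps28* and *Rps20*, small subunit members among the brightest, had fold changes of -0.08, -0.08 and -0.05, with intervals from -0.33 to 0.17 at the widest. Without x and s probe sets *Rps20* was read by a much dimmer one, at 94 to 131, with a fold change of 0.32 and an unadjusted p of 0.0215, and its sign also turned after quantile normalization and after centring on other bright genes. *Rps29* had the highest signals of any member, 17521, 21654 and 18144 in *Jarid2* Δpanc and 19661, 21058 and 19676 in *Jarid2* WT. *Rps6*, the substrate of S6 kinase and a common readout of mTORC1 activity, had 1030, 938 and 1021 in *Jarid2* Δpanc and 1150, 976 and 862 in *Jarid2* WT (0.01, -0.31 to 0.33). All *Jarid2* Δpanc values of *Rps6* lie within the *Jarid2* WT range. When all probe sets of a gene were averaged, a much dimmer second probe set of *Rps6*, at 21 to 39, moved its fold change to 0.30, with an unadjusted p of 0.0164.

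The paralogs include genes of restricted expression. *Rpl3l*, known from heart and skeletal muscle, had signals of 2, 3 and 4 in *Jarid2* Δpanc and 15, 3 and 22 in *Jarid2* WT. It was over 16 in *Jarid2* WT 3 alone, the array with the muscle markers. *Rpl39l*, known from the testis, was read at 34, 23 and 12 in *Jarid2* Δpanc and 24, 20 and 30 in *Jarid2* WT. *Rps4l* and *Rpl7l1* had fold changes of -0.05 and -0.10, with intervals that included 0. Dimmer probe sets of *Rpl7l1* gave 0.10 and -0.19. The single probe set named for the small subunit gene *Rps16* was under 16 on every array, so it gives no difference for that gene.

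Members differed with how brightly their probe sets read, by a limit set after the values were seen. With a mean log2 signal over 12, a signal of about 4096, there were 36 members. All 36 had negative fold changes as deposited, after median centring and after centring on spike-ins, against 25 negative and 10 positive ones after quantile normalization. Centring on the median level of other bright genes adds 0.09 to the fold change of every gene, so the 13 members between -0.09 and 0 turned positive. Centring on the median deviation of those genes from their *Jarid2* WT means left 31 negative and 5 positive. As deposited the median of the 36 was -0.10 and their range -0.27 to -0.02. The 13 dimmer members had 7 negative and 5 positive values and a median of -0.03. Large and small subunit genes had medians of -0.11 and -0.09 over 17 bright genes each. Over the same limit of 12, 164 other genes had a median of -0.06, with 125 negative and 39 positive values, and 29 of them (17.7%) were lower at an unadjusted p under 0.05. A brighter probe set on these arrays need not mean a more abundant mRNA, since the signal also depends on the probes.

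**Figure D2:**
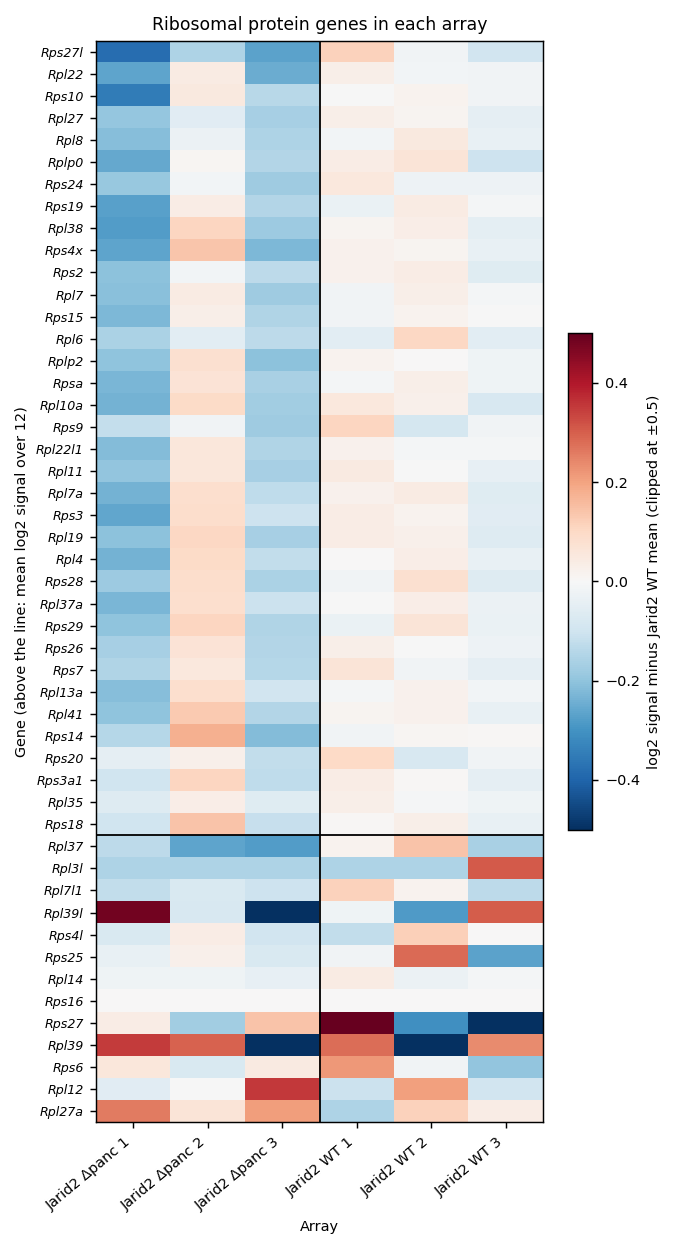
Each row is a ribosomal protein gene and each column an array, coloured by its log2 signal minus the mean of the *Jarid2* WT arrays (blue lower, red higher, clipped at 0.5 either way), with the 36 genes over a mean log2 signal of 12 above the horizontal line and ordered by fold change. In the upper block *Jarid2* Δpanc 1 and 3 are blue in nearly every row and *Jarid2* Δpanc 2 is pale or red in most, while the 13 rows below the line show no shared order.

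The bright members moved together from array to array, and the *Jarid2* Δpanc arrays did not move alike. Relative to the *Jarid2* WT mean, the median of the 36 genes was -0.21, 0.06 and -0.15 in *Jarid2* Δpanc 1, 2 and 3, and 0.02, 0.02 and -0.04 in *Jarid2* WT 1, 2 and 3. *Jarid2* Δpanc 1 held the lowest value of 30 genes and *Jarid2* Δpanc 3 that of the other 6, whereas *Jarid2* Δpanc 2 held the highest value of 25. *Jarid2* Δpanc 1 and 3 were both below every *Jarid2* WT array in 35 of the 36 genes (97.2%), and in 86 of the 164 other bright genes (52.4%). The 164 were not matched in brightness: in *Jarid2* WT 1 they summed to 1107930, against 457419 for the 36. At signals like the members', *Pnliprp1* shared the arrangement, with 12403, 15995 and 13112 in *Jarid2* Δpanc and 14784, 15580 and 15027 in *Jarid2* WT. *Col3a1* did not, with 10081, 12520 and 10836 in *Jarid2* Δpanc and 10468, 10068 and 11229 in *Jarid2* WT. *Jarid2* Δpanc 2 lay above every *Jarid2* WT array in 25 of the 36, within their range in 8 and below it in 3.

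The same order among the *Jarid2* Δpanc arrays, with 1 the lowest and 2 the highest, appeared in probe sets outside the members. The 110 probe sets that carry a ribosomal protein symbol beside other symbols, each left unnamed, had array medians of -0.18, 0.05 and -0.14 in *Jarid2* Δpanc and 0.02, 0.02 and -0.03 in *Jarid2* WT, and a median fold change of -0.09. The 164 other bright genes had medians of -0.13, 0.02 and -0.08 in *Jarid2* Δpanc and 0.01, 0.01 and -0.03 in *Jarid2* WT. The 9 probe sets for bacterial and phage RNA added as controls averaged -0.13, 0.27 and -0.05 in *Jarid2* Δpanc and 0.06, -0.09 and 0.03 in *Jarid2* WT, with *Jarid2* Δpanc 2 the highest array in 9 of 9. The highest signal of any probe set was 19539, 24948 and 21104 in *Jarid2* Δpanc, against 24682, 25093 and 24231 in *Jarid2* WT. Thus *Jarid2* Δpanc 1 was the lowest and *Jarid2* Δpanc 2 the highest *Jarid2* Δpanc array also in the mean of the added controls. In these controls, though, *Jarid2* Δpanc 3 was above *Jarid2* WT 2 (-0.05 against -0.09), unlike in the bright members. The controls, also used for the spike-in centring below, include probe sets for *cre*, a gene that *Jarid2* Δpanc embryos carry as well. Those had fold changes of -0.02 and -0.01. The highest signal of *Jarid2* Δpanc 2 lay within the *Jarid2* WT range. The part of these array differences in the ribosomal protein values was not tested beyond the centring below.

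**Figure D3:**
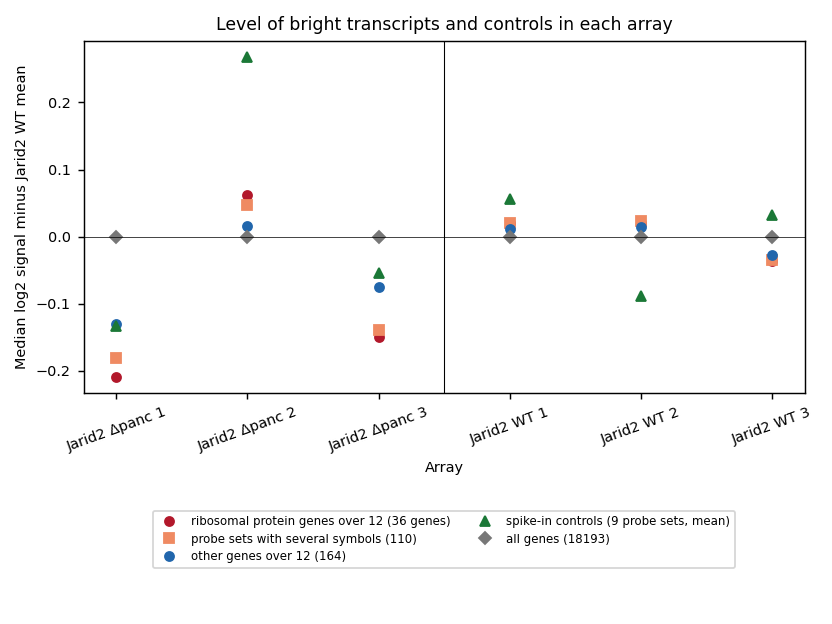
Log2 signal minus the *Jarid2* WT mean in each array, as the median over the 36 ribosomal protein genes over 12, the 110 probe sets with several symbols, the 164 other genes over 12 and all 18193 genes, and as the mean over 9 spike-in probe sets. *Jarid2* Δpanc 1 and 3 are below 0 and *Jarid2* Δpanc 2 above it in every class except all genes, which lie at 0.

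The fold changes of the members depended on the scaling, and the centrings below were chosen after seeing the data. A centring shifts every gene alike and keeps the gap between the 36 bright members and the 164 other bright genes (medians of -0.10 and -0.06 as deposited). Centring each array on the median level of the 164 other bright genes raised every fold change by 0.09 and brought the median of all 49 members to -0.0016. Centring on the median deviation of these genes from their *Jarid2* WT means raised every fold change by 0.06 and left the members at -0.03, and quantile normalization left them at -0.02. Centring on the spike-in controls gave -0.12, with 0 members at an unadjusted p under 0.05 and 13 of 49 with all *Jarid2* Δpanc arrays below all *Jarid2* WT arrays, beside 3.56% of all genes. Leaving out *Jarid2* Δpanc 2 gave a median of -0.17, with 30 of 49 members lower at an unadjusted p under 0.05, beside 4.57% of all genes, and 35 of 49 below every *Jarid2* WT array, beside 9.53%. Of the 164 other bright genes, 48 and 86 met these limits without that array, and their median was -0.11. Even then 0 members passed an adjusted p under 0.05. Without *Jarid2* Δpanc 1 the members' median was -0.04 and 0 were lower, beside 686 of 18193 genes. Without the muscle-rich *Jarid2* WT 3 the median was -0.12 and 4 members were lower, beside 932 of 18193 genes.

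Probe design and RNA quality bear on these values. Of the 36 bright members, 15 were read by probe sets whose suffix marks probes that may bind other transcripts (x) and 1 by a set shared by several transcripts (s), and ribosomal protein genes have many processed pseudogenes of near-identical sequence, so the signals of such members are uncertain as to their copy. Of 20 members with more than 1 probe set at a signal of 100 or more, the fold changes within a gene differed by at most 0.43, in *Rps24*. That is more than the size of most members' fold changes. The sign differed between probe sets in *Rps24*, *Rps20*, *Rpl41*, *Rpl7l1* and *Rpl22* and was negative throughout in the rest. In *Rpl41* the second probe set, at a mean signal of 8197, gave 0.03, against -0.07 for the brightest. The 3 probe sets for 18S ribosomal RNA were lowest in *Jarid2* Δpanc 3 on 3 of 3, with 2784 for the 5′ one there against 5734 or more in the other *Jarid2* Δpanc arrays and 4770 to 7041 in *Jarid2* WT. The ratio of 5′ to 3′ signal was 1.35, 1.19 and 1.31 for *Gapdh* and 0.63, 0.56 and 0.58 for *Actb* in *Jarid2* Δpanc, against 1.36, 1.27 and 1.29 for *Gapdh* and 0.56, 0.62 and 0.61 for *Actb* in *Jarid2* WT. *Jarid2* Δpanc 2 had the lowest *Gapdh* ratio, and its part in the members' values was not tested.

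Other genes of translation gave small differences too. *Fau*, whose product yields a small subunit protein and whose symbol the pattern does not take, had a fold change of -0.13 (95% interval -0.37 to 0.12). Of 10 elongation and termination factors 0 were called at an unadjusted p under 0.05, with a median of -0.11, *Eef2* lowest at -0.19 and *Eef1a1* highest at 0.01. Of 33 initiation factors 8 were lower, a larger share than over all genes, and 0 higher, with a median of -0.05. They were *Eif2b2*, *Eif2b4* and *Eif2b5*, subunits of the exchange factor for eIF2, *Eif2s2* of eIF2 itself, *Eif3b*, *Eif3h* and *Eif3k* of the scaffold eIF3, and *Eif1ax*. *Eif2b2* was the lowest, with signals of 668, 675 and 639 in *Jarid2* Δpanc and 753, 769 and 822 in *Jarid2* WT (-0.24, 95% interval -0.36 to -0.13, adjusted p = 0.285 from limma). The groups were well apart for this dim transcript, and *Jarid2* Δpanc 2 did not differ from the other *Jarid2* Δpanc arrays as it did for the ribosomal proteins. *Eif2s3x*, on the X chromosome, was the highest at 0.25, with 2201, 2285 and 2355 in *Jarid2* Δpanc and 1788, 1592 and 2497 in *Jarid2* WT, where the arrays without *Xist* signal are the lowest.

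The 17 other listed TOP mRNAs, not searched for the start motif, had a median of -0.06, with 1 lower (*Eif3h*) and 0 higher. *Eif3h* and others of them are also counted in the lists above. *Tpt1* reads 13876, 18256 and 14907 in *Jarid2* Δpanc and 16497, 16173 and 15991 in *Jarid2* WT, the order of the bright members. Proteins of the mitochondrial ribosome, a separate machine, had a median of -0.07 over 77 genes, with 13 lower and 0 higher. The share lower was again larger than over all genes. *Mrpl57* was the lowest at -0.47 and *Mrpl33* the highest at 0.33. Of 63 ribosome biogenesis genes 4 were lower and 2 higher, beside 4.44% and 4.37% of all genes. Their median was -0.03, between *Nob1*, an endonuclease that finishes 18S RNA, at -0.60 and *Nol6* at 0.21. The snoRNA hosts had 0 of 10 called and a median of 0.06, with *Gas5* at -0.12 the lowest and *Snhg14* at 0.21 the highest.

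Regulators were read as well. Of 22 genes of mTORC1, Larp1 and Myc, 2 were lower and 0 higher at the same unadjusted limit, with a median of -0.02. Over all genes 4.44% were lower and 4.37% higher. The 2 were *Deptor*, an inhibitor of mTOR, at -0.29 (394, 442 and 447 in *Jarid2* Δpanc, against 521, 527 and 514 in *Jarid2* WT) and the translational repressor *Eif4ebp1* at -0.23 (734, 705 and 760 in *Jarid2* Δpanc, against 799, 876 and 910 in *Jarid2* WT). The groups of both genes did not overlap, with adjusted p of 0.311 and 0.413 from limma. *Mlst8*, a subunit of mTORC1, was the highest at 0.30 with an interval that included 0. Of 18 measured genes of the p53 list, without p53 itself, 5 were lower at that limit (*Perp*, *Ccng1*, *Cdkn1a*, *Phlda3* and *Sesn1*) and *Mdm2* was higher. *Perp* had 253, 267 and 253 in *Jarid2* Δpanc and 475, 440 and 332 in *Jarid2* WT (-0.67), and *Mdm2* had 256, 281 and 252 in *Jarid2* Δpanc and 202, 234 and 198 in *Jarid2* WT (0.32). *Bbc3*, at 0.60, was the highest of the list and did not pass at an unadjusted p under 0.05. None of the regulators passed after adjustment over all genes.

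**Figure D4:**
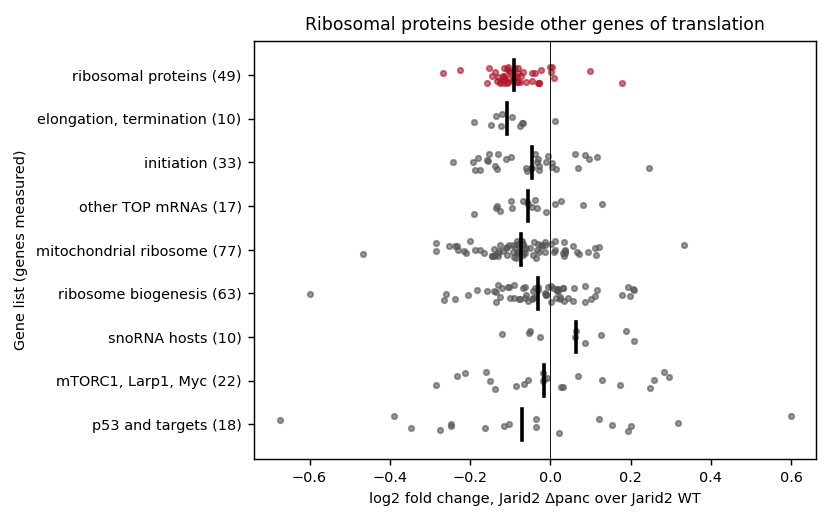
Log2 fold change of *Jarid2* Δpanc over *Jarid2* WT for each gene of the ribosomal proteins (red) and of 8 other lists (grey), 1 row a list with its number of measured genes, and the median as a black bar. The ribosomal proteins are packed between -0.27 and 0.18 around -0.09, and single genes of the p53 list and the biogenesis list reach -0.60 or lower.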

How the data were processed

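The authors extracted total RNA from e15.5 pancreases, made biotin-labelled cRNA through 2 cycles of cDNA synthesis from 50 ng and hybridized 6 Affymetrix arrays. The deposited values are linear intensities of 45101 probe sets, which the submitters' processing notes credit to MAS5 (version not given). On every array their mean is 150 after trimming 2% at each end, as checked. The methods of the study name RMA and LIMMA, and RMA would need the scanner output, not used here.

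Signals were floored at 16 before taking log2. The annotation used here lists 35890 probe sets. The 932 with several symbols, the 9211 unnamed and 13 control probe sets with a symbol were left out, and the brightest probe set stood for each of 18193 genes. The fit used limma (version 3.58.1, lmFit followed by eBayes, 4 residual and 0.608 prior degrees of freedom) under R 4.3.3, with Benjamini-Hochberg adjustment over all genes. It was tested on simulated data. No detection calls, dates or batches were analysed, each array had 26.5% to 29.0% of its probe sets below 16, and the number of arrays limits the precision. No 2 arrays held identical values.

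The members and gene lists were chosen with earlier results of these data known. Named members were the 5 lowest, 5 highest and 5 brightest, those past the threshold, the paralogs, stalk proteins, *Rpsa*, X-linked members, *Rpl5*, *Rpl11*, *Rps19* and *Rps6*, and any whose probe sets differed by over 1 log2 unit. From each other list the lowest, the highest and those past the threshold were named, with others called in the text chosen after their values were seen. Alternatives covered each array left out, the replicate number, normalization, floor, filters, probe set, variance model and threshold. Promoter sequences are from RefSeq, GRCm38.p6.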

Additional observations from a re-analysis of the deposited data

How the results depend on the processing

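The median fold change of the members kept its negative sign under every alternative run, between -0.17 and -0.0016, while counts at an unadjusted p under 0.05 moved. Members lower (2 in the fit reported) numbered 4 with quantile normalization, beside 778 of 18193 genes. They numbered 1 with median centring, with a floor of 1, without genes at the floor and without the dimmest 40%. When centred on the level or the deviation of other bright genes, when centred on spike-ins and beyond 0.29 they numbered 0. Members higher were 1 with the mean of all probe sets (*Rps6*) and 1 without x and s probe sets (*Rps20*). Members below all *Jarid2* WT arrays numbered 6 with quantile normalization, 1 with median centring, 5 with the mean of probe sets and 13 with spike-in centring. Those above numbered 1 with quantile normalization, the mean of probe sets, no x or s probe sets and centring on the level of bright genes. The share below over all genes was 3.56% with spike-in centring, and the shares for the other settings were not counted. Over all genes, quantile normalization gave 3 lower and 1 higher at adjusted p, none of them members. Genes lower at unadjusted p (807 of 18193) were 509 of the 10916 tested without the dimmest 40%. They were 292 with bright-gene centring (354 by deviation), 368 with spike-in centring and 375 beyond 0.29. Genes higher (795) were 523 with a floor of 64, 1546 with bright-gene centring, 309 with spike-in centring and 446 beyond 0.29.

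Leaving out 1 array gave 0 to 30 members lower, 3 to 35 below and 0 to 2 above all *Jarid2* WT arrays, and over all genes 0 to 8 lower and 0 to 4 higher at adjusted p. Members lower were 30 without *Jarid2* Δpanc 2 and 4 without *Jarid2* WT 3, beside 832 and 932 of 18193 genes, and 0 without any other array. The cause was not tested. Deviations of same-numbered arrays correlated at -0.03 to -0.02, which gave no sign of pairing but with 3 arrays a group cannot exclude it. A fit with a replicate block gave 2 members lower, 3 below and a median of -0.09. Its 2 calls were *Rpl6* and *Rpl8*, with 0 shared with the fit reported, so that *Rps27l* and *Rpl27* did not pass there. In 445 of 452 fits of 24 named members the fold change moved by at most the gene's within-group standard deviation, and 7 moved further. Unadjusted calls could still change within that limit, and 40 fits turned the sign of a difference that had not passed. Dim probe sets, such as those of *Rps27*, *Rpl39* and *Rpl39l*, limit what can be resolved.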
